A study of Homo sapiens with 172 samples.

Results

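The globin genes of haemoglobin were examined for contact with the nuclear lamina, the protein meshwork under the inner nuclear membrane, in single KBM7 cells, a human leukaemia line with a near-haploid genome. Members were chosen by position in hg19. The beta-globin window, 11:5200001 to 5400000, holds HBB, HBD, HBG1, HBG2 and HBE1, and the alpha-globin window, 16:100001 to 300000, holds HBZ, HBA2 and HBA1. These 8 genes lie in 4 of the 26414 bins of 100 kb that carried a value, and which bin of a window holds which gene was not resolved here. The 1 Mb on either side of each window served for comparison, with 20 covered bins around the beta window and 11 around the alpha window, which lies close to the end of its chromosome.

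Haemoglobin pairs chains of the alpha type with chains of the beta type, and the genes of each type sit in a cluster of their own. In erythroid cells the clusters switch from embryonic to fetal and adult genes under the control of distant enhancers. The beta cluster is known as a region that replicates late outside erythroid cells, with olfactory receptor genes around it, and the alpha cluster as a gene-dense region near a chromosome end with widely expressed neighbours. DNA at the lamina is mostly gene-poor and little transcribed in many cell types. The files hold no RNA, so whether KBM7 cells expressed any globin was not measured.

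All 172 labelled samples form 1 group, haploid (1N) cells of clone 5-5 carrying Dam methyltransferase fused to LaminB1, a lamina protein. Shield1 at 0.5 nM, a ligand that stabilises the fusion protein, was given for 15 h before harvest. Cells were then sorted one by one, from the smallest 2% of those showing both of the Fucci reporters of cell cycle phase. The fusion adds methyl groups to adenines in GATC near the lamina, and methylated fragments are sequenced (DamID). Only 1 clone was used and nothing was compared with it, so no test between conditions could be made, and each SD below is a spread among cells of that clone. At 1N a call concerns a single copy of each cluster unless the locus had been replicated, which was not measured.

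The table had 168 columns, and columns numbered 86 apart came from the same cell. All 84 such pairs were each other's best match, and in 82 their read counts differed by less than sampling noise. The columns of a pair were averaged and counted as 1 cell, for n = 84. The other pairs were those of cells 54 and 56. Contact was called at an observed over expected ratio of at least 1, and contact frequency is the percent of cells in contact. Intervals of single bins are exact Clopper-Pearson 95% intervals and cover counting error only. Reads worked back from the ratios ran from 7134 to 418937 per cell in its deeper column (median 63700).

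DamID sees a locus only through its GATC sites, which the stretches before the start of a globin gene of either cluster illustrate. Sequences were available here for HBD, the gene of the minor adult beta-type chain delta, and for HBM, which lies between HBZ and HBA2 in gene order. Both are shown from RefSeq (GRCh38.p14) as the 250 bases before the gene's start, with GATC in capitals. HBD is at chr11:5234484-5234733 on the minus strand and HBM at chr16:165728-165977 on the plus strand, and neither position was set against the hg19 bins.
HBD: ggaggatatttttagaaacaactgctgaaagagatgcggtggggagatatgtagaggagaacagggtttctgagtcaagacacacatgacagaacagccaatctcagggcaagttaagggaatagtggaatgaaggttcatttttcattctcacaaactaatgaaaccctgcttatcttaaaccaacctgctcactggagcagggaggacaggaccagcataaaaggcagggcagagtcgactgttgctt
HBM: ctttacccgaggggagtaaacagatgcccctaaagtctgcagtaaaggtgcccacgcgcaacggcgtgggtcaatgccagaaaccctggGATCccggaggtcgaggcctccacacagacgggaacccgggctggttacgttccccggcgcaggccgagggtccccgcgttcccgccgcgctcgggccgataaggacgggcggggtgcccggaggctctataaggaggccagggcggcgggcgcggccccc
The HBD stretch has 0 GATC sites, 45.2% G and C and 2 CG dinucleotides. The HBM stretch has 1 GATC site, 69.2% G and C and 27 CG dinucleotides. GATC reads the same on both strands, and 35.8% of the 35116 stretches of this length in the table hold it. Contact of a single promoter therefore cannot be read from these data, and each value below is for a whole 100 kb bin.

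The 2 clusters differed widely in lamina contact. The beta-globin bins were in contact in 53.6% ± 43.8 of cells (mean of the 2 bins, SD over n = 84), and the alpha-globin bins in 0.595% ± 5.46. Within cells the difference was 53.0 ± 44.8 percentage points. The beta window had more of its bins in contact in 55 cells, neither window had one in 28, and the alpha window had more in 1. No cell had contact at both clusters. With an alpha contact in only 1 cell, this does not show that contact at one cluster excludes the other. The difference was 50.0 points in cells 1 to 29 and 54.5 in cells 30 to 86, sets that also differ in read depth.

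Both beta bins were contacted in an intermediate share of cells. The first, 11:5200001 to 5300000, was in contact in 42 of 84 cells, 50.0% (interval 38.9 to 61.1%). The second, 11:5300001 to 5400000, was in contact in 48, 57.1% (45.9 to 67.9%). Within cells the second bin exceeded the first by 7.14 ± 48.6 points (SD, n = 84), with only the second in contact in 13 cells and only the first in 7. Its ratio was the higher one in 51 cells, the lower one in 22 and equal in 11, all 11 with both bins at 0. At a cutoff of 2 the frequencies were 25.0 and 45.2%, with only the second in contact in 21 cells and only the first in 4. The order of the bins was thus the same at both cutoffs, and the gap was wider at the higher one. Both fell in the class of 20 to 80%, which holds 47.4% of all covered bins, a share that gives no ground to single out the locus. Both were also at or above 50%, as were 30.7% of covered bins. Their percentiles were 69.8 and 76.5 among all covered bins, and 64.9 and 71.1 among those of chromosome 11. In cells 1 to 29 the first bin was at 41.4% and the second at 58.6%, and in cells 30 to 86 they were at 54.5 and 56.4%. These sets also differ in depth, with 7134 to 90564 reads per cell in the former and 11390 to 418937 in the latter.

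Ratios at the beta bins spread over a wide range. In the first bin they ran from 0 in 22 cells to 12.1 in cell 57, with a median of 1.00 and middle quartiles from 0 to 2.01. In the second they ran from 0 in 18 cells to 24.6 in cell 57, with a median of 1.64 and quartiles from 0.281 to 3.22. Another 20 and 18 cells had a ratio between 0 and 1. The median of the first bin thus stood right at the contact cutoff. The 2 columns of a cell gave the same call in 71 of 84 cells for the first bin and in 76 for the second.

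Single-cell depth sets how firm these calls are. In the first beta bin of the median cell, 2.00 reads made a ratio of 1, and in 17 of 84 cells less than 1 read did. The deeper columns held between 0 and 37 reads in this bin, with a median of 2.00, and 62 of 84 had at least 1. In the second bin they held between 0 and 67 reads, with a median of 4.00. In the 42 cells with the most reads the frequencies were 57.1 and 61.9%, and in the 42 with the fewest 42.9 and 52.4%. Frequency at both beta bins was thus higher in the deeper cells, and all 4 values lay inside the intervals from all cells. A ratio of 0 in a shallow cell may be a contact that was not sampled, which was not tested.

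The 5 cells with the highest mean ratio among those with both beta bins in contact were cells 57, 23, 43, 22 and 50. Cell 57 had ratios of 12.1 and 24.6 from 7 and 16 reads, with 17503 reads in all and 14.9% of covered bins in contact. Cell 23 had 5.80 and 6.42 from 7 and 17 reads, and cell 43 had 5.42 and 5.91 from 22 and 35 reads. Cell 22 reached 4.08 and 6.43 with only 1 and 4 reads. Cell 50 had 7.22 and 2.25. Cell 43, with 124072 reads in all, had the most reads of the 5 in both bins.

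**Figure D1:**
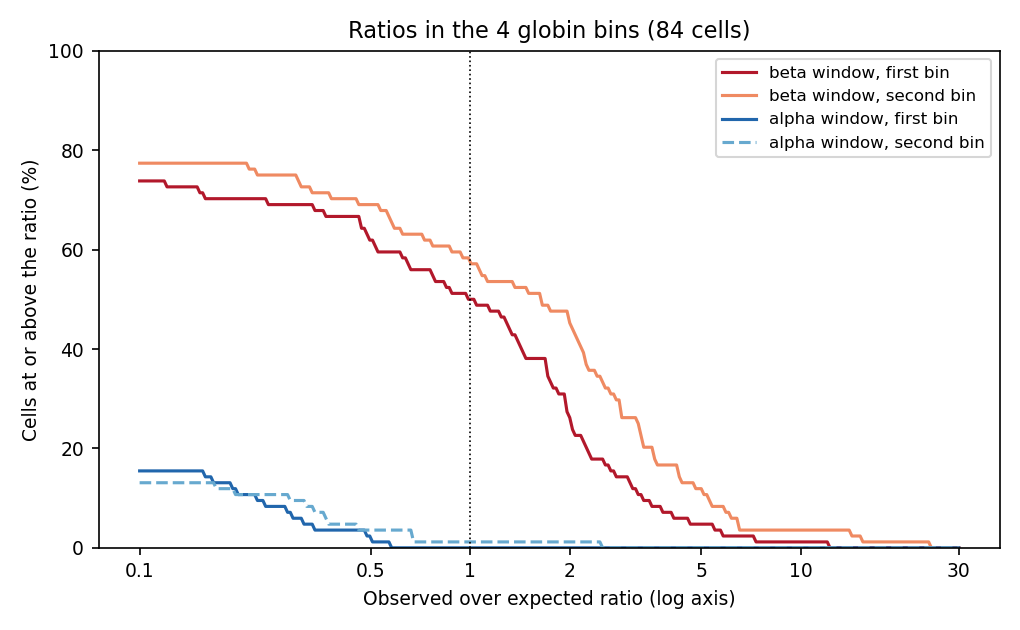
Percent of the 84 cells (vertical axis) with an observed over expected ratio at or above the value on the horizontal log axis, for the 4 globin bins. The dotted line marks the contact cutoff of 1, where the beta bins stand at 50.0 and 57.1% and the alpha bins at 0 and 1.19%. Ratios below 0.1 are not shown.

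The alpha-globin bins were almost never at the lamina. The first, 16:100001 to 200000, was in contact in 0 of 84 cells. Its exact interval is 0 to 4.30%, and 3 counts of 84, the limit taken here for a count of 0, would be 3.57%. Of all covered bins, 6.19% were likewise in contact in no cell. The second, 16:200001 to 300000, was in contact in 1 cell, 1.19% (0.0301 to 6.46%). Both were under 5%, as were 36.7% of covered bins, and both in at most 1 cell, as were 16.5%. Their percentiles were 3.10 and 11.3 among all covered bins, and 4.31 and 15.6 among those of chromosome 16. The ratio was 0 in 69 and 72 of the 84 cells, and its highest values were 0.574 in cell 6 for the first bin and 2.48 in cell 55 for the second.

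The single alpha contact was weakly supported. Cell 55 had 1 read in this bin in either column, which gave ratios of 3.20 and 1.75, and 19201 reads in its deeper column. Its beta bins had ratios of 0 and 0.577. None of the 42 cells with the most reads had an alpha bin in contact.

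The expectation was of similar size at both loci. Recovered as a whole number per bin, it was 290 and 213 in the alpha bins and 238 and 325 in the beta bins, against a median of 316 over covered bins. In the median cell 2.44 reads made a ratio of 1 in the first alpha bin and 1.79 in the second. Summed over the deeper columns of the 84 cells, the alpha bins held 24 and 9 reads, where a spread of all reads by the expectation would give 316 and 232. The beta bins held 434 and 880 reads against 259.7 and 355. The quotients were 0.0758 and 0.0387 for the alpha bins and 1.67 and 2.48 for the beta bins. These sums weight deep cells most.

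The beta-globin window lay inside a contacted stretch with steep borders. Bins at 20% or more ran without a break from 11:4200001 to 6400000, which is 2.20 Mb, or 22 bins with a mean frequency of 52.5%. The window sits near its middle. The last bin below the stretch, 11:4100001 to 4200000, was in contact in 2 cells, 2.38%, and the first above it, 11:6400001 to 6500000, in 1 cell, 1.19%. Frequency thus rose by 23.8 points on entering the stretch and fell by 32.1 points on leaving it, a single bin apart on either side. The stretch was delimited by these same frequencies, so its borders are a description.

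Beyond the borders the 2 sides differed. Below, 8 of 9 covered bins over 1 Mb were under 5%, and their mean was 2.12%. Above, only 3 bins were under 5%, the next was at 13.1%, and from 11:6800001 to 7400000 frequencies ran from 53.6 to 66.7%. In gene order (GRCh38.p14), the 10 coding genes nearest to HBB on its side of the cluster are all olfactory receptor genes, the first of them OR51V1. On the other side HBE1 is followed by OR51B4, an olfactory receptor gene too. Which of these genes lie inside the stretch was not resolved, since their positions were given in another build than the bins.

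**Figure D2:**
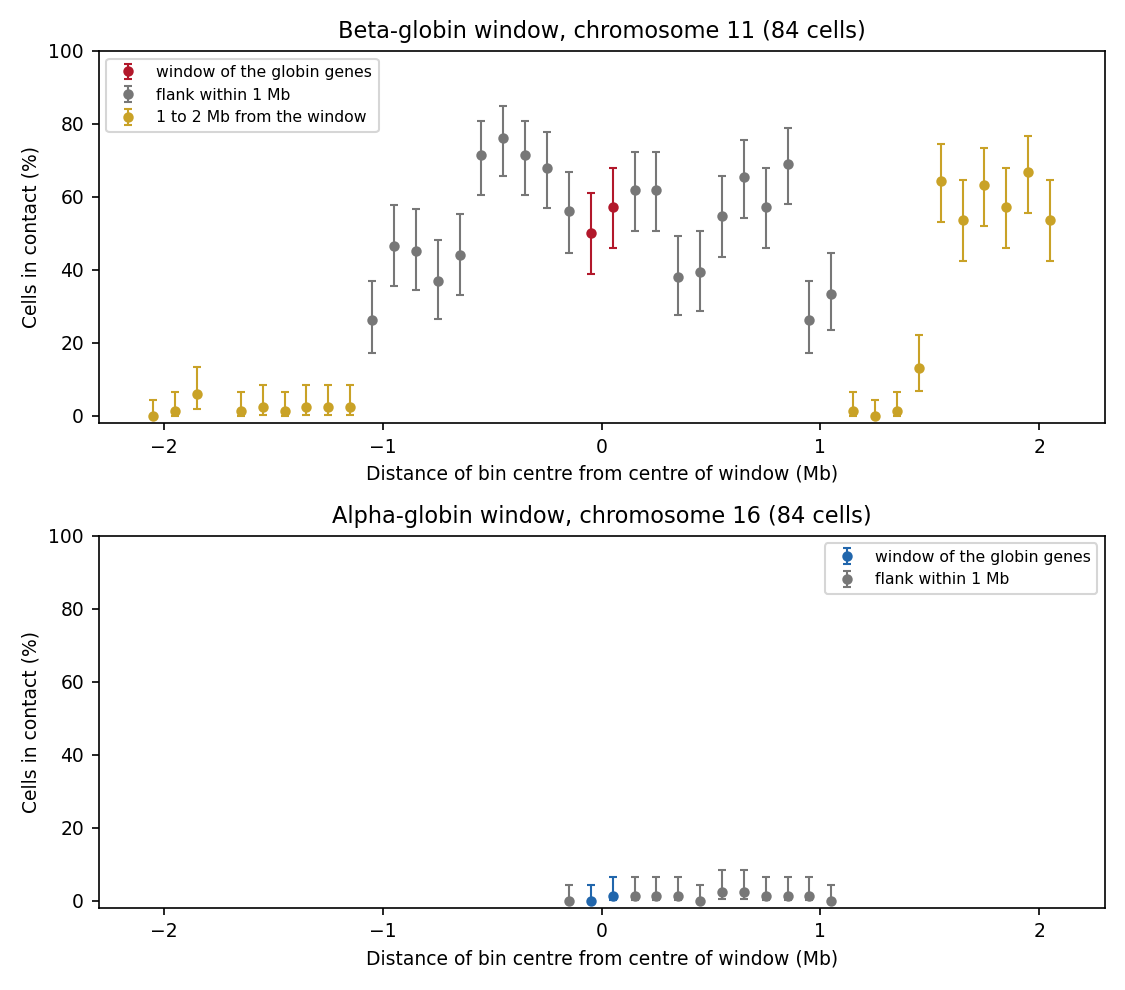
Percent of 84 cells in contact (vertical axis) by distance in Mb from the centre of each globin window, with exact 95% intervals as bars. The beta bins (red) lie among flank bins at 26.2 to 76.2%, with low bins on either side of the stretch, whereas the alpha bins (blue) and their flanks all lie at or under 2.38%.

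The beta window was close to the mean of its flanks of 1 Mb. The flank bins had a mean frequency of 52.4%, against 53.6% in the window, a difference within cells of 1.13 ± 30.1 points. The window was above its flanks in 39 cells, below in 41 and equal in 4. Against the lower flank the difference was -0.595 ± 31.2 points and against the upper flank 2.86 ± 33.4. The difference depended on the width of the flanks. It was -6.31 points with flanks of 0.5 Mb, and 16.6 points (5.41 to 27.5, counting error of the window alone) with flanks of 2 Mb, which reach past the borders of the stretch. Its sign also changed between columns, from -1.07 points with the lower-numbered ones to 4.70 with the higher-numbered ones. Compared with the rest of chromosome 11, at 30.3%, the window was higher by 23.3 ± 41.0 points, and higher in 55 of 84 cells. These are the 55 cells with any beta bin in contact, so this count restates the calls.

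Within the stretch, frequency was uneven, and the first beta bin lay in a shallow low between peaks. The highest bin of the lower flank was 11:4800001 to 4900000, with 64 cells, 76.2% (65.7 to 84.8%), at percentile 98.7 of all covered bins. Its interval does not overlap that of the first beta bin. In 24 cells this flank bin was in contact and the first beta bin was not, whereas the reverse was seen in 2 cells. The highest bin of the upper flank, 11:6100001 to 6200000, was at 69.0% (58.0 to 78.7%), and its interval overlaps those of both beta bins. It was in contact without the first beta bin in 21 cells, and the reverse was seen in 5. Both flank bins were picked as the highest of their flank in these same data, which favours such gaps. The bin just below the first beta bin, 11:5100001 to 5200000, was at 56.0% (44.7 to 66.8%). Its interval overlaps that of the first beta bin, as does that of the second beta bin. The bin at 11:4800001 also has a larger expectation, 377 against 238.

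The lowest flank bins were at the edges. They were 11:4200001 to 4300000 and 11:6200001 to 6300000, each in contact in 22 cells, 26.2% (17.2 to 36.9%). The first of them has an expectation of 117, under the 238 of the first beta bin. A further low lay close to the window, at 11:5600001 to 5700000 with 38.1% and the next bin with 39.3%. Set against the mean of the other 21 bins of the stretch in the same cell, the first beta bin was lower in 62 cells and higher in 22, and the second was lower in 41 and higher in 43. The bin at 11:5600001 was lower in 75 cells, and the bin at 11:4800001 was higher in 57. A few high ratios can raise such a mean, which by itself puts single bins below it more often. Most other bins of the stretch were not counted in this way.

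Contact at the 2 beta bins was mostly shared. Both were in contact in 35 cells, only the first in 7, only the second in 13 and neither in 29. The calls thus differed in 20 of 84 cells. Across the 21 steps between neighbouring bins of the stretch the number of cells with different calls ran from 12 to 38, the highest at the step from 11:6100001 to 6200001 near the upper border.

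When a beta bin was in contact, the contact usually reached far beyond the globin genes. Runs of consecutive contacted bins that held the first beta bin had a median length of 1.00 Mb (quartiles 0.60 to 1.48 Mb, n = 42 cells), and 25 of 42 were at least 1 Mb long. For the second bin the median was also 1.00 Mb (quartiles 0.400 to 1.40, n = 48), with 26 of 48 at least 1 Mb. A contact in the first beta bin alone, with neither neighbour, was seen in 1 cell, and in the second in 3. For comparison, over the 4587 covered bins at 45 to 62% the median of such medians was 0.900 Mb, 43.5% of contacts lay in runs of at least 1 Mb, and 10.8% were single bins.

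Most runs through the window ended inside the stretch. Of the 42 runs through the first beta bin, 8 reached the lower border of the stretch and 4 the upper one, and of the 48 through the second, 8 and 5 did. Of the 8 that reached the lower border 1 went on beyond it, for either bin, and of the 4 and 5 at the upper border 0 did. This follows from how the stretch was delimited, since the next bins were in contact in only 2 and 1 cells. The longest run, in cell 35, spanned the stretch from 11:4200001 to 6400000.

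Cells differed widely in how much of the stretch they had in contact. Of its 22 bins, cells had 11.6 ± 6.55 in contact (SD, n = 84), with a median of 13.0. Contact was found at 0 bins in 3 cells, at 1 to 5 in 19, at 6 to 11 in 16, at 12 to 16 in 22 and at 17 to 22 in 24. Cell 35 alone had all 22.

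**Figure D3:**
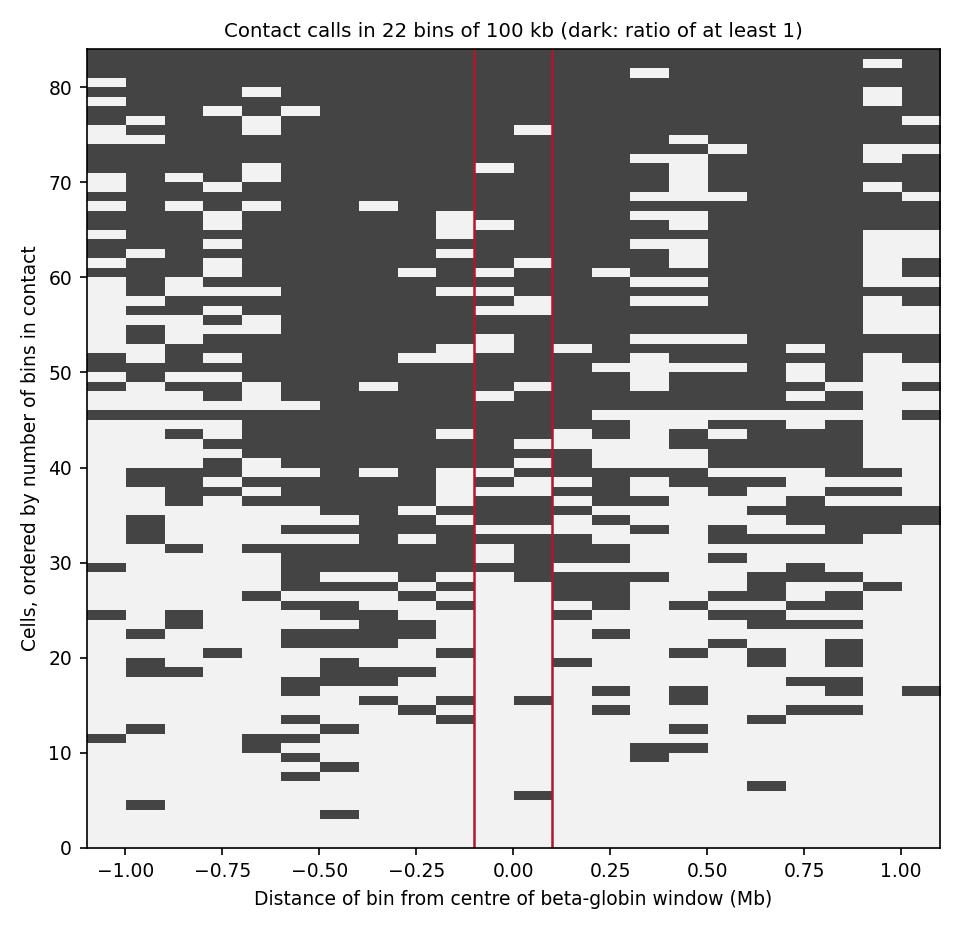
Contact calls in the 22 bins of the stretch around the beta-globin window, with the distance from the centre of the window in Mb on the horizontal axis and 1 row per cell, ordered by the number of bins in contact. Dark marks a ratio of at least 1, and red lines bound the window, where both bins are in contact in 35 cells and neither in 29.

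The number of beta bins in contact went with the rest of the stretch more than with the cell as a whole. As descriptions over the 84 cells, its Pearson correlation was 0.73 with the share of flank bins in contact, 0.36 with the contact share of chromosome 11 outside window and flanks, 0.33 with that of all bins, and 0.27 with the log of the read number. These measures share each cell's library and depth. The mean beta ratio and the mean alpha ratio had a correlation of -0.10, with most alpha ratios at 0.

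Calls of the beta bins were matched most closely to those of neighbouring bins on average, and less closely further away. After correction for each cell's contact share, the mean correlation was 0.47 with its neighbours at 0.1 Mb, 0.33 over 8 bins at 0.2 to 0.5 Mb, 0.36 over 10 bins at 0.6 to 1 Mb, 0.24 over 6 bins at 1.1 to 2 Mb and 0.21 over 8 bins at 2.1 to 5 Mb. The fall was not even. The highest value, 0.59, was with 11:6000001, which lies 0.8 Mb away, while the bins at 11:5600001 and 11:5700001, in between, had 0.10 and 0.14. For the second bin the mean was 0.49 at 0.1 Mb, 0.32 at 0.2 to 0.5 Mb, 0.30 at 0.6 to 1 Mb, again 0.30 over 7 bins at 1.1 to 2 Mb and 0.21 at 2.1 to 5 Mb. Beyond the upper border, the bins from 11:6800001 to 7300000 had 0.29 to 0.37 with the second beta bin. These values were above the 0.11 of the bin at 11:5700001 inside the stretch. The next bin, at 11:7300001, had 0.11 as well. With the first beta bin, the bins from 11:6800001 to 7300000 had 0.17 to 0.36. Only bins in contact in 20 to 80% of cells entered these means. Below the stretch no bin within 5 Mb did, so outside the stretch the means rest on its upper side alone.

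**Figure D4:**
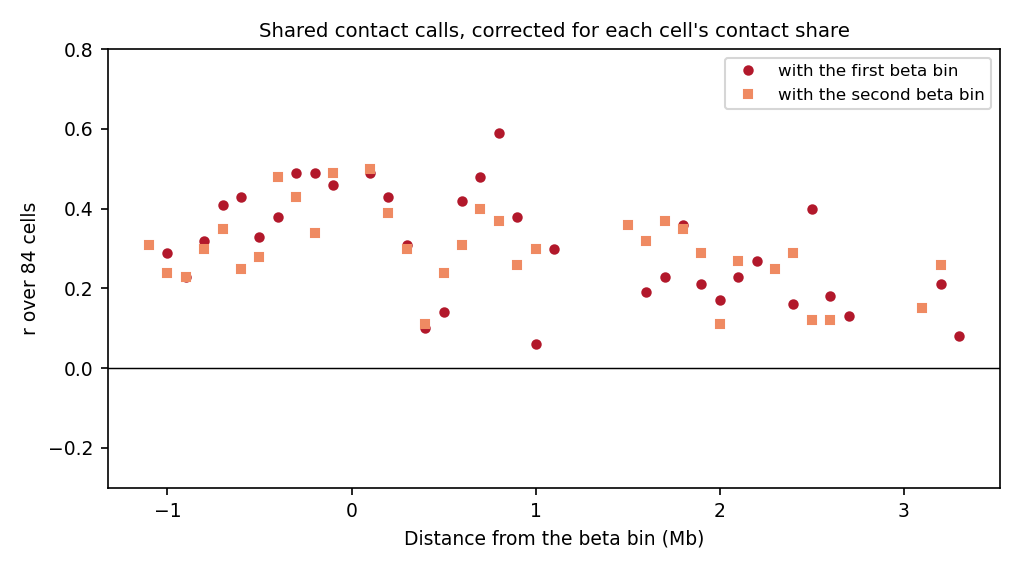
Correlation over 84 cells (vertical axis) between contact calls of each beta bin and of other chromosome 11 bins in contact in at least 20% of cells, by signed distance in Mb and corrected for each cell's contact share. Values for the first beta bin reach 0.59 at 0.8 Mb, are 0.10 at 0.4 Mb and are lowest, at 0.06, at 1.00 Mb.

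The alpha-globin window lay in a stretch of low contact that began at the chromosome end. Its only flank bin on the side of the end, 16:1 to 100000, was in contact in 0 cells, but has an expectation of only 17. The 10 bins on the other side had a mean frequency of 1.19% and none was above 2.38%, the value of 16:700001 to 800000 and 16:800001 to 900000. Bins under 5% ran unbroken from the chromosome's first bin to 16:1500000. The first bin at 20% or more on this chromosome arm was 16:5800001, with 23.8%.

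The alpha window and its flanks were both near 0, at 0.595 and 1.08%, a difference within cells of -0.487 ± 6.31 points. With flanks at this level a lower window could not have been shown. The sign of the difference changed with the cutoff, to 0.216 points at 0.5. Against the rest of chromosome 16, at 15.1%, the alpha window was lower by 14.5 ± 9.85 points, in 83 of 84 cells. These are the 83 cells with no alpha bin in contact, so this count restates the calls. Low contact near a chromosome end was not particular to chromosome 16. Of the 16 chromosomes with at least 5 covered bins in their first 1.3 Mb, chromosome 16 had 1.01%, above only chromosomes 7 and 11 with 0.733 and 0.893%, and chromosome 3 was highest with 57.5%. In gene order the alpha genes are followed by HBQ1, another alpha-type globin gene, and LUC7L, and preceded by NPRL3 and MPG, a DNA repair gene. None of the 17 nearest coding genes, 7 before and 10 after, is an olfactory receptor gene.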

How the data were processed

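The submitters' processing notes name cutadapt, Bowtie2 2.1.0 and the build hg19. The authors deposited 1 table of observed over expected ratios for 30376 bins of 100 kb. How the expectation was built and how duplicate reads were treated is not given in the sources used here. Bins without a value (3792), bins at 0 in every column and chromosome Y were left out, and 168 of 172 labelled samples had a column.

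Reads were worked back as whole numbers (100% of values above 0 within 0.005), with an expectation of 1 to 592 per bin that no read number exceeded. This recovery was tested on simulated ratios. Columns n and n + 86 were averaged. Python 3.11.15, NumPy 2.4.6 and SciPy 1.17.1 were used. Amplified reads carried no molecular identifiers and need not be separate molecules. No p-value was made from cells, which are not replicates.

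Members, lists and tests were chosen with earlier results of these data known. Named by rule were the 8 genes and their bins, the highest and lowest flank bins, and up to 10 cells with both bins of a cluster in contact, or else 5 by mean ratio. Other bins, cells and neighbouring genes were named after their values were seen. Erythroid regulators were given no values, since their positions were not in hg19. Alternatives were other cutoffs, scaling, columns, sets of cells, flanks and reference bins.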

Additional observations from a re-analysis of the deposited data

How the results depend on the processing

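The results were recomputed under 18 alternatives, which gave 187 values. Of these alternatives 17 were planned, and a separate count of the 168 columns was added later, with the results in view. The interval of the value reported held 165 of the values. This interval is exact for the frequency of a single bin. For a cluster mean, the exact limits of its bins were averaged. For a difference, the flank or alpha mean was then subtracted as a fixed number. A percentile was read at the limits of its bin. Of the differences, only beta minus alpha had a reported interval away from 0 (41.8 to 63.9 points). It carries counting error of the beta bins alone. A reversal could therefore be counted for this difference alone, and 0 were. The intervals of the differences from the flanks spanned 0 (-10.1 to 12.1 points for beta, -1.07 to 4.29 for alpha). Both differences changed sign under some alternatives, reaching -6.31 points for beta and 0.541 for alpha. The beta window was above the alpha window in all 13 alternatives run, by 34.5 to 63.1 points.

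Cutoffs moved the beta values by construction. At 0.5 the beta bins were at 61.9 and 69.0% (mean 65.5%) and the first alpha bin at percentile 1.81. At 1.5 the first beta bin was at 38.1%. At 2 the beta bins were at 25.0 and 45.2% (mean 35.1%), 34.5 points above alpha. The percentile of the first alpha bin was 2.50 after scaling each cell to its mean, 2.44 with the lower-numbered column, and 2.98 among bins with at least its expectation. Cell 55 was the only cell with an alpha contact, so the second alpha bin and the alpha mean were at 0% in sets without it: even cells, cells 1 to 29 and the 42 deepest cells. In even cells this bin was at percentile 6.05, and alpha was below its flanks by -1.52 points there and by -1.57 in cells 1 to 29. With flanks of 2 Mb the beta window exceeded them by 16.6 points, since these reach past the borders of the stretch, and with 0.5 Mb it was -6.31. Depth limits single calls, and frequencies differed with it. The beta bins were at 57.1 and 61.9% in the 42 deepest cells and at 42.9 and 52.4% in the other 42.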
